A study of Rattus norvegicus with 16 samples.

Results

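The miR-128 family of the rat comprises 3 mature RNAs among the 722 miRNAs listed in the deposited tables: the shared arm miR-128-3p and the passenger arms miR-128-1-5p and miR-128-2-5p. They were found by name, the family having been picked with earlier results of these data known, and all 3 passed the filter on low counts, as did 639 miRNAs in all. The samples were 16 small RNA libraries from bulk brain tissue of 60-day-old rats. They came from amygdala of high responders, amygdala of low responders, dorsal raphe of high responders and dorsal raphe of low responders, with 4 libraries each. High and low responders are rat lines bred for a strong or weak locomotor response to unfamiliar surroundings. The labels give no treatment, sex or breeding generation, and do not say whether the 4 samples of a group are separate rats, so the spread that the p-values measure may be technical.

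A miRNA is cut from a hairpin precursor into 2 arms. One arm is mainly loaded into Argonaute, where its seed (bases 2 to 8) pairs with messenger RNAs and represses them, and the other, the passenger, is mostly degraded. miR-128 is a brain-enriched miRNA of neurons. Its hairpins lie in introns of 2 genes on different chromosomes, R3hdm1 (Mir128-1) and Arpp21 (Mir128-2). Arpp21 encodes a cyclic AMP-regulated phosphoprotein of forebrain neurons. In mice, loss of miR-128 raises neuronal excitability and motor activity. The amygdala, in the forebrain, serves fear learning, and the dorsal raphe is the midbrain nucleus from which serotonin neurons project to the forebrain.

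The mature sequences show which counts can be assigned to a locus. All 3 were found in RefSeq (build GRCr8, rat), each 21 bases long, and are written 5′ to 3′ with the seed in capitals:
rno-miR-128-3p: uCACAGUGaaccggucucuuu
rno-miR-128-1-5p: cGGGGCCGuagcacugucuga
rno-miR-128-2-5p: gGGGGCCGaugcacuguaaga
The 3p arm is identical at both loci, so its counts cannot be divided between them. The passenger arms differ at 5 of 21 positions and have the same seed, GGGGCCG, which among the 693 mature miRNAs of the sequence table occurred in these 2 alone. The seed CACAGUG of miR-128-3p was likewise found at bases 2 to 8 of no other miRNA of that table. At any position, CACAGUG was found in 7 of the 693, and 2 of these are the 3p arms of the miR-27 family, where it lies at bases 3 to 9 (capitals):
rno-miR-27a-3p: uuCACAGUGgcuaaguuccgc
rno-miR-27b-3p: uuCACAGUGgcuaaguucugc
The hairpins of the 2 loci, with both mature arms in capitals, show where the precursors differ outside the 3p arm. The longest run common to both is 23 bases and covers that arm and the 2 bases before it. Mir128-1 lies at chr13:42251884-42251965 on the plus strand within the span of R3hdm1, and Mir128-2 at chr8:120963795-120963878 on the minus strand within the span of Arpp21 (GRCr8):
Mir128-1: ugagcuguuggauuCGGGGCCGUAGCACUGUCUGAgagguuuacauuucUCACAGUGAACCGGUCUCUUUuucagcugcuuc
Mir128-2: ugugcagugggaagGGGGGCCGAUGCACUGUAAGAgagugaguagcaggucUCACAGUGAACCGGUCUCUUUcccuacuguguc

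Library totals ran between 1741167 and 8134915 counts in amygdala and between 2096188 and 5917144 in dorsal raphe. Levels are in CPM, counts relative to a library total that was first multiplied by a TMM factor (from a trimmed mean of log ratios between libraries), and percentages use unscaled counts. The TMM factor lay between 0.871 and 1.27 except in low responder dorsal raphe replicate 4, where a factor of 0.596 makes scaled levels higher than unscaled ones. That library and high responder amygdala replicate 1 stood apart, deviating from the mean of their group by a root mean square of 1.03 and 0.968 log2 units over all miRNAs (0.285 to 0.880 in the other 14). The results below are given also without them where that matters. Hox cluster miRNAs, which mark hindbrain, summed to 28.3 to 159.7 CPM in the amygdala libraries, to 3932 CPM in low responder dorsal raphe replicate 4 and to between 373 and 473 CPM in the remaining 7 raphe libraries. The files hold miRNAs alone, so markers of serotonin neurons could not be checked.

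miR-128-3p was the second most abundant of all miRNAs in each of the 8 amygdala libraries, and ranked between 14 and 24 in the 8 dorsal raphe libraries. In high responder amygdala it made up 12.4%, 10.04%, 7.77% and 7.94% of the counts (replicates 1 to 4). In low responder amygdala it made up 7.48%, 4.93%, 6.19% and 6.38%. In high responder dorsal raphe the shares were 1.57%, 1.27%, 2.17% and 1.28%, and in low responder dorsal raphe 1.68%, 1.36%, 1.298% and 1.99%. The lowest amygdala share was thus above the highest raphe share. In bulk tissue, fewer cells of a type and less RNA per cell cannot be told apart.

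The scaled levels gave the same order of regions. miR-128-3p stood at 115022, 95055, 89225 and 88059 CPM in high responder amygdala, and at 64212, 45979, 63378 and 68527 CPM in low responder amygdala. In high responder dorsal raphe it stood at 12426, 12604, 20158 and 12166 CPM, and in low responder dorsal raphe at 15481, 12802, 13019 and 33493 CPM. The last value belongs to the library with the low TMM factor. By mean, the groups ran high responder amygdala (96840 ± 12502 CPM), low responder amygdala (60524 ± 9956), low responder dorsal raphe (18698 ± 9937) and high responder dorsal raphe (14339 ± 3884; SD, n = 4 each). The raphe groups overlapped, and all other neighbours in this order had separate ranges. All 8 amygdala libraries were above all 8 raphe libraries for miR-128-3p and miR-128-1-5p, which was seen for 1.88% of the 639 miRNAs (6.57% counting both directions).

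**Figure D1:**
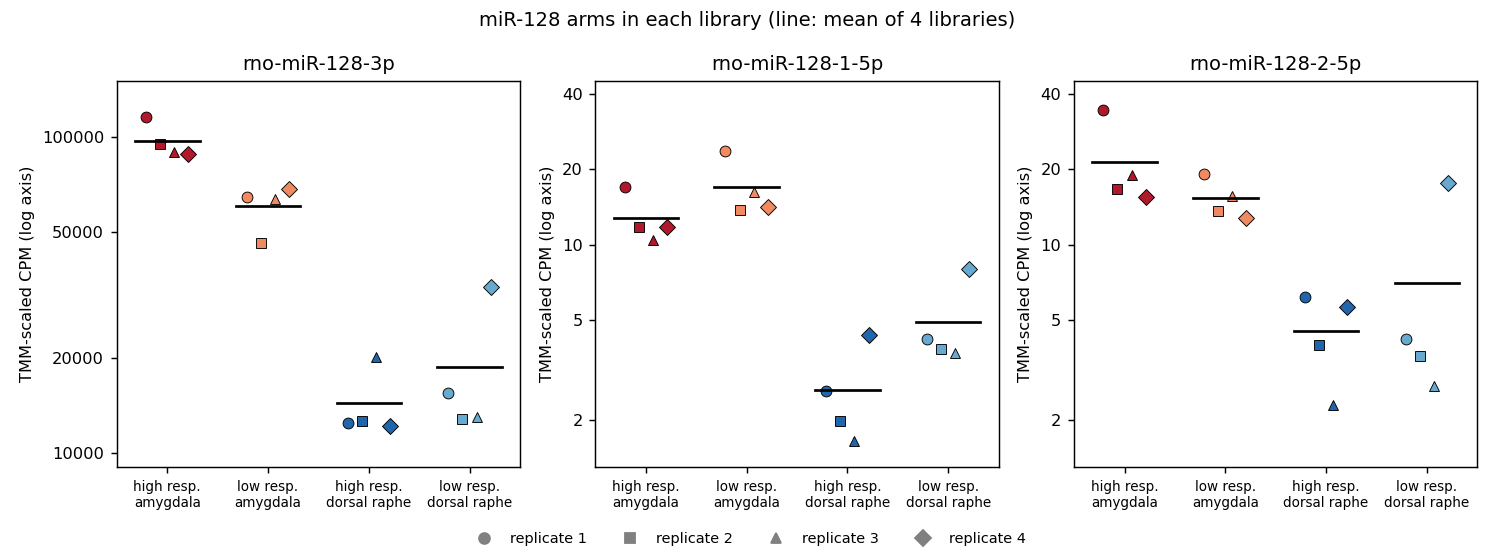
TMM-scaled CPM (log axis) of miR-128-3p, miR-128-1-5p and miR-128-2-5p in each of the 16 libraries, with the group mean as a line and replicate numbers as symbols. All 8 amygdala libraries lie above all 8 raphe libraries for miR-128-3p and miR-128-1-5p, while miR-128-2-5p of low responder dorsal raphe replicate 4, at 17.6 CPM, lies within the amygdala range; unscaled, at 10.5 CPM, it is below the lowest amygdala library, at 11.9 CPM.

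The comparison of amygdala with dorsal raphe asks whether the mature arm and the passenger arm of each locus differ between the regions. Averaged over the lines, all 3 arms were higher in amygdala in edgeR's quasi-likelihood test, where 24.3% of the 639 miRNAs were called and 9.39% were called higher. miR-128-3p was 4.68-fold higher in amygdala (log2 fold change 2.23, SE 0.22, edgeR adjusted p = 1.1e-06), the fifth lowest p of all. miR-128-1-5p, the passenger of the R3hdm1 locus, averaged 14.9 ± 4.20 CPM in amygdala and 3.80 ± 1.98 CPM in dorsal raphe (SD, n = 8 each). Its log2 fold change was 2.06 (SE 0.25, edgeR adjusted p = 1.1e-05). miR-128-2-5p, the passenger of the Arpp21 locus, averaged 18.4 ± 6.94 CPM in amygdala and 5.79 ± 4.96 CPM in dorsal raphe (SD, n = 8 each). Its log2 fold change was 1.78 (SE 0.35, edgeR adjusted p = 0.0011). The region difference thus passed the test for the arm of either locus as well as for the shared arm, and the 95% intervals of the 3 log2 fold changes overlapped (1.76 to 2.69 for the 3p arm, 1.53 to 2.60 for 1-5p and 1.04 to 2.52 for 2-5p).

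The passenger values rest on few reads. miR-128-1-5p had 32, 32, 63 and 50 counts in high responder amygdala and 103, 75, 75 and 107 in low responder amygdala. In high responder dorsal raphe it had 8, 11, 10 and 17 counts, and in low responder dorsal raphe 27, 17, 19 and 10. miR-128-2-5p had 65, 45, 115 and 66 counts in high responder amygdala and 84, 74, 72 and 97 in low responder amygdala. In dorsal raphe it had 19, 22, 14 and 22 counts in high responders and 27, 16, 14 and 22 in low responders. Every value was above the floor of 3 counts, which stood for 0.369 to 1.72 CPM and covers counting error only. miR-128-3p of the same libraries had 38080 to 539800 counts, so that its precision is set by the spread between samples.

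Within each line the region difference was tested apart. In high responders miR-128-3p was 6.75-fold higher in amygdala (log2 fold change 2.76, SE 0.32, edgeR adjusted p = 1.6e-05), where 13.1% of the miRNAs were called and 6.57% were called higher. In low responders it was 3.24-fold higher (1.69, SE 0.31, edgeR adjusted p = 0.0011), where 14.1% were called and 3.6% were called higher. miR-128-1-5p was higher in amygdala in both lines, by 2.27 (SE 0.36) in high and 1.86 (SE 0.35) in low responders (edgeR adjusted p = 0.00045 and 0.0015). miR-128-2-5p was higher in high responders (2.25, SE 0.50, edgeR adjusted p = 0.0050) and did not pass in low responders (1.31, SE 0.50, edgeR adjusted p = 0.085). In low responders its amygdala levels were 19.3, 13.6, 15.6 and 12.8 CPM and its raphe levels 4.22, 3.62, 2.74 and 17.6 CPM. Low responder dorsal raphe replicate 4 was inside the amygdala range only after TMM scaling: unscaled it stood at 10.5 CPM, and the lowest amygdala library at 11.9 CPM. Without that library the log2 fold change was 2.21 (edgeR adjusted p = 0.00087). It also passed without high responder amygdala replicate 1 (1.59, edgeR adjusted p = 0.025) and without high responder amygdala replicate 4 (1.52, edgeR adjusted p = 0.047).

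**Figure D2:**
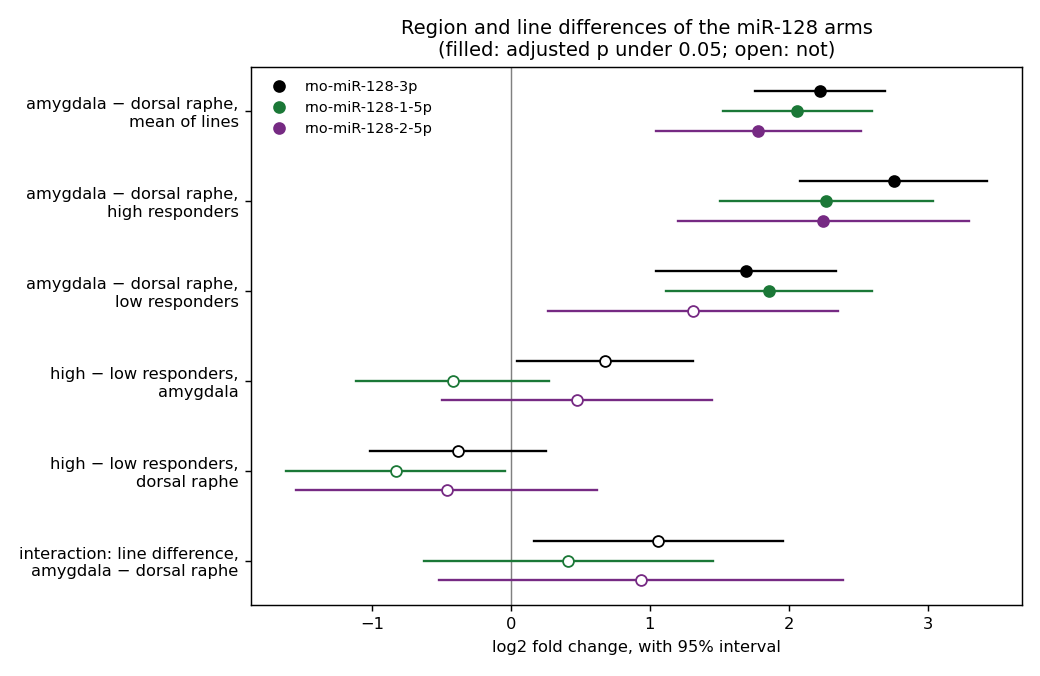
log2 fold changes with 95% intervals of the 3 miR-128 arms in 6 comparisons; filled points passed an adjusted p of 0.05 in edgeR and open points did not. The region differences lie between 1.31 and 2.76, with miR-128-2-5p in low responders the one open point among them, and all points of the line differences and of the interaction are open.

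The comparison of the lines within each region asks whether miR-128 goes with the bred trait. In amygdala the miR-128-3p levels of the lines did not overlap, with 88059 CPM the lowest in high responders and 68527 CPM the highest in low responders, and such separation was seen for 8.76% of all miRNAs (5.01% with high responders above). The log2 fold change was 0.68 (SE 0.30, 95% interval 0.04 to 1.31), and it did not pass after adjustment (unadjusted p = 0.038, edgeR adjusted p = 0.48). In this comparison edgeR called 0% of the miRNAs, DESeq2 called 19 and limma-voom 0, and edgeR gave 65 miRNAs (10.2%) an unadjusted p below 0.05. miR-128-3p was not called by DESeq2 or limma-voom, and its adjusted p lay between 0.13 and 0.67 over all alternatives tried. With same-numbered libraries paired within region, the log2 fold change was 0.69 (edgeR adjusted p = 0.31).

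The passenger arms of the 2 loci stood on opposite sides of 0 in this comparison. miR-128-1-5p had a log2 fold change of -0.42 (SE 0.33, 95% interval -1.11 to 0.28) and miR-128-2-5p one of 0.47 (SE 0.46, 95% interval -0.50 to 1.45), and neither passed (edgeR adjusted p = 0.71 and 0.75). Without high responder amygdala replicate 1 the miR-128-2-5p value was 0.14 and that of miR-128-1-5p -0.59. miR-128-1-5p stood at 17.0, 11.8, 10.4 and 11.8 CPM in high responder amygdala, against 23.6, 13.8, 16.3 and 14.1 CPM in low responder amygdala. miR-128-2-5p stood at 34.6, 16.6, 19.0 and 15.5 CPM in high responder amygdala, against 19.3, 13.6, 15.6 and 12.8 CPM in low responder amygdala. Both pairs of ranges overlapped.

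In dorsal raphe no arm passed between the lines, and edgeR called 0% of the miRNAs and gave 70 (11%) an unadjusted p below 0.05. DESeq2 and limma-voom also called 0. The log2 fold change was -0.38 for miR-128-3p (SE 0.30, 95% interval -1.02 to 0.25), -0.83 for miR-128-1-5p (SE 0.37, -1.62 to -0.04) and -0.46 for miR-128-2-5p (SE 0.52, -1.55 to 0.62), with edgeR adjusted p of 0.82, 0.41 and 0.94. Without low responder dorsal raphe replicate 4 the values were 0.19 for miR-128-3p, -0.47 for miR-128-1-5p and 0.46 for miR-128-2-5p, so the direction of 2 of the 3 rests on that library. With library totals in place of TMM factors the miR-128-3p value was -0.011. miR-128-1-5p in dorsal raphe had 8 to 27 counts a library, and its levels were 2.61, 1.99, 1.65 and 4.36 CPM in high responders and 4.22, 3.84, 3.72 and 8.01 CPM in low responders.

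Whether the line difference itself differed between the regions was tested as an interaction. miR-128-3p had the largest value of the 3 arms (1.06, SE 0.43, 95% interval 0.17 to 1.96; unadjusted p = 0.023), and it did not pass after adjustment (edgeR adjusted p = 0.30). miR-128-1-5p had 0.41 (SE 0.49) and miR-128-2-5p 0.94 (SE 0.69), with edgeR adjusted p of 0.84 and 0.66. Of all miRNAs, edgeR called 0%, DESeq2 called 22 and limma-voom 0, and 81 (12.7%) had an unadjusted edgeR p below 0.05. Without low responder dorsal raphe replicate 4 the miR-128-3p value was 0.45. A larger region difference of miR-128-3p in high than in low responders was therefore not shown.

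The share of miR-128-2-5p among the counts of both passenger arms compares the passengers of the 2 loci within a library and needs no scaling. Passengers are mostly degraded, so this share does not measure how much precursor each locus makes. In high responder amygdala it was 67.01%, 58.4%, 64.6% and 56.9%, and in low responder amygdala 44.9%, 49.7%, 49.0% and 47.5%. In high responder dorsal raphe it was 70.4%, 66.7%, 58.3% and 56.4%, and in low responder dorsal raphe 50%, 48.5%, 42.4% and 68.8%. All 8 high responder libraries were above 50%, and of the 8 low responder libraries only dorsal raphe replicate 4 was. Single shares are imprecise: the exact binomial 95% intervals ran between 46.6% and 76.2% in high responder amygdala and between 37.7% and 58.0% in low responder amygdala, and were wider in dorsal raphe.

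**Figure D3:**
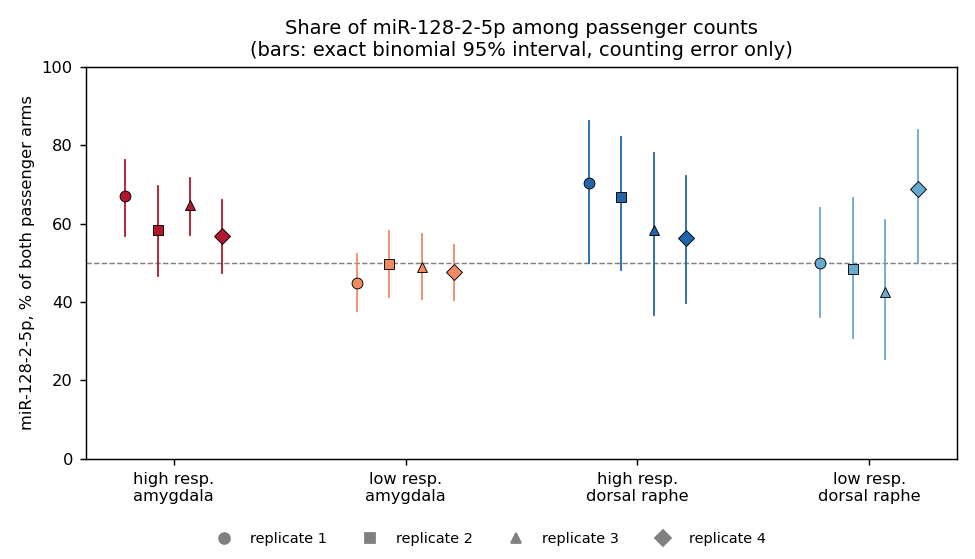
miR-128-2-5p as a percentage of the counts of both passenger arms in each library, with exact binomial 95% intervals (counting error only) and a dashed line at 50%. The high responder libraries lie between 56.4% and 70.4% in both regions, the low responder amygdala libraries between 44.9% and 49.7%, and low responder dorsal raphe replicate 4 at 68.8%.

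The log2 ratio of miR-128-2-5p to miR-128-1-5p (0.5 added to each count) was compared by exact two-sided permutation tests, adjusted over 15 tests of 3 ratios in 5 comparisons. Between the lines in amygdala it averaged 0.69 ± 0.29 in high responders and -0.13 ± 0.12 in low responders (SD, n = 4 each). The difference of 0.82 is a ratio 1.76-fold higher in high responders (exact permutation p = 0.0286, the smallest that 4 against 4 libraries allow; adjusted p = 0.143). In dorsal raphe it averaged 0.75 ± 0.40 in high responders and 0.15 ± 0.66 in low responders (SD, n = 4 each; difference 0.60, exact permutation p = 0.171, adjusted p = 0.367). Without low responder dorsal raphe replicate 4 the raphe difference was 0.92 (exact permutation p = 0.0286, adjusted p = 0.0857). Between the regions the ratio differed by -0.17, amygdala minus raphe, averaged over the lines (exact permutation p = 0.472, adjusted p = 0.701). No difference of this ratio passed the adjustment.

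The passenger arms together were a small fraction of the mature arm. Per 100 counts of miR-128-3p there were 0.0344 passenger counts in high responder amygdala, 0.0531 in low responder amygdala, 0.0490 in high responder dorsal raphe and 0.0597 in low responder dorsal raphe (geometric means, n = 4 each). Single libraries ranged between 0.0200 and 0.0833. The log2 ratio was lower in high than in low responder amygdala by 0.63 (difference -0.63, exact permutation p = 0.0571, adjusted p = 0.214), and averaged over the lines it was -0.34 in amygdala relative to raphe (exact permutation p = 0.212, adjusted p = 0.398). With miR-128-1-5p alone as the passenger, an alternative to the sum, the amygdala line difference was -1.08. Its exact permutation p was 0.0286, the smallest that 4 against 4 libraries allow (adjusted p = 0.107). The lines did not overlap, at 0.0118% to 0.0150% of the 3p counts in high responders and 0.0207% to 0.0369% in low responders. The miR-128-3p levels alone also separated these lines, a separation seen for 8.76% of all miRNAs. How many miRNAs separate the lines when set over miR-128-3p was not counted. With miR-128-2-5p alone as the passenger the amygdala line difference was -0.26, and the lines overlapped.

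Within a region the arms were compared across the 8 libraries, which pool both lines, so an r includes any line difference. Libraries left out below were those most distant in miR-128-3p. For the passenger arms with each other, miR-128-1-5p was used. miR-128-3p and miR-128-2-5p had a Pearson r of 0.681 in amygdala (exact permutation p = 0.0604; Spearman rho 0.548, exact permutation p = 0.171), which was 0.191 once the 2 libraries most distant from the median were left out. miR-128-3p and miR-128-1-5p had an r of -0.259 there (exact permutation p = 0.537; Spearman rho -0.214, exact permutation p = 0.619), and -0.833 without the 2 farthest libraries. With group means taken out, over all 16 libraries, the r with miR-128-3p was 0.405 for miR-128-1-5p and 0.578 for miR-128-2-5p. Of the 6 relations tested, the lowest p was that of the passenger arms with each other in dorsal raphe (r = 0.742, exact permutation p = 0.0353, adjusted p = 0.181; Spearman rho 0.643, exact permutation p = 0.0962), and the r was -0.116 without the 2 farthest libraries. No relation passed the adjustment.

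miR-124-3p, the most widely used neuron-specific miRNA, did not show the region difference of miR-128-3p. It made up 0.282%, 0.454%, 0.903% and 0.970% of the counts in high responder amygdala and 0.860%, 1.13%, 1.11% and 1.39% in low responder amygdala. In high responder dorsal raphe it made up 1.20%, 1.25%, 2.18% and 1.14%, and in low responder dorsal raphe 1.44%, 1.47%, 1.23% and 0.306%. The regions overlapped, and the averaged region difference was -0.47 (SE 0.30, edgeR adjusted p = 0.26). High responder amygdala replicate 1 and low responder dorsal raphe replicate 4 were the lowest of all 16.

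The ratio of miR-128-3p to miR-124-3p, free of library scaling, was 44.0, 22.1, 8.60 and 8.19 in high responder amygdala and 8.70, 4.38, 5.58 and 4.60 in low responder amygdala. In dorsal raphe it was 1.31, 1.01, 0.994 and 1.12 in high responders and 1.17, 0.925, 1.06 and 6.52 in low responders. Averaged over the lines it was 7.04-fold higher in amygdala than in raphe (log2 difference 2.82, exact permutation p = 0.00163, adjusted p = 0.0245, n = 8 each). With same-numbered libraries paired, this difference did not pass (exact permutation, adjusted p = 0.234). Within the lines it was 14.7-fold in high responders (exact permutation p = 0.0286, adjusted p = 0.143) and 3.38-fold in low responders (exact permutation p = 0.114, adjusted p = 0.286), and neither passed. Without low responder dorsal raphe replicate 4 the averaged log2 difference was 3.15, and all amygdala libraries were then above all raphe libraries. Between the lines the log2 ratio differed by 1.53 in amygdala, higher in high responders (exact permutation p = 0.0857, adjusted p = 0.257), and by -0.58 in dorsal raphe (exact permutation p = 0.714, adjusted p = 0.765), where it was 0.08 without that library.

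**Figure D4:**
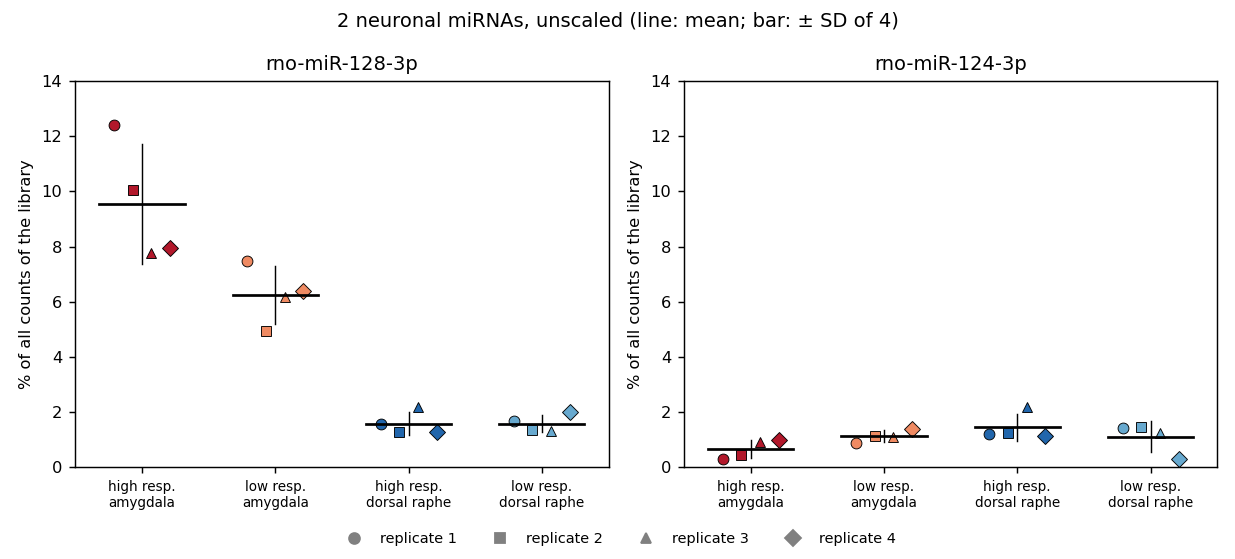
Percentage of each library's unscaled counts taken by miR-128-3p and by miR-124-3p, with the group mean and SD (n = 4). miR-128-3p takes 4.93% to 12.4% in amygdala and 1.27% to 2.17% in dorsal raphe, while miR-124-3p takes 0.282% to 1.39% in amygdala and 0.306% to 2.18% in dorsal raphe.

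The miR-27 arms that hold the letters of the miR-128-3p seed did not pass between the regions. miR-27a-3p averaged 1186 ± 446 CPM in amygdala and 1572 ± 442 CPM in dorsal raphe (SD, n = 8 each; log2 fold change -0.41, SE 0.27, edgeR adjusted p = 0.27). miR-27b-3p averaged 12535 ± 4028 CPM in amygdala and 16413 ± 2656 CPM in dorsal raphe (SD, n = 8 each; -0.39, SE 0.19, edgeR adjusted p = 0.14). Per library, miR-128-3p had 3.08 to 13.6 times the counts of both miR-27 arms together in amygdala, and 0.622 to 1.62 times in dorsal raphe.

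The miRNAs with the pattern most like miR-128-3p, by Pearson r of log2 CPM over the 16 libraries among 405 miRNAs of at least 10 CPM, were miR-212-5p (r = 0.954), miR-504 (0.938), miR-139-3p (0.936), miR-139-5p (0.921) and miR-222-3p (0.915). Such an r includes the region difference, and the values of a library share its depth and scaling. Within the 8 amygdala libraries the r was 0.711 for miR-212-5p, 0.812 for miR-504, 0.517 for miR-139-3p, 0.235 for miR-139-5p and -0.383 for miR-222-3p. In the 8 raphe libraries it was 0.760, 0.853, 0.843, 0.157 and 0.528, in the same order. With group means taken out, over all 16 libraries, it was 0.722, 0.762, 0.849, 0.131 and 0.179. miR-212-5p, an arm of a hairpin that neuronal activity induces, averaged 972 ± 152 CPM in amygdala and 327.5 ± 160.3 CPM in dorsal raphe. The other arm, miR-212-3p, was less abundant, at 264 ± 101 CPM in amygdala and 115 ± 20.4 CPM in dorsal raphe. The most opposite patterns were those of the muscle miRNA miR-133a-3p (-0.950), the p53 target miR-34a-5p (-0.934), miR-135a-5p (-0.928), miR-181c-3p (-0.920) and miR-298-3p (-0.919).

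miRNA lists of brain cell types, with miR-128-3p left out of them, were set beside the miR-128 region difference; they were written with earlier results of these data known. In amygdala, 4 of 19 neuron-enriched miRNAs were higher and 3 lower, with a median log2 fold change of -0.12, against -0.08 over all 639, of which 9.39% were called higher and 14.9% lower. The neuron-enriched share called lower is thus near that of all miRNAs, and the share called higher is above it. The neuron-enriched sums were 220341 to 271441 CPM in amygdala and 177180 to 353462 CPM in dorsal raphe. The highest raphe sum was that of low responder replicate 4, with the low TMM factor, and the next highest was 230146 CPM. miR-132-3p (1.73) and miR-212-3p (1.16), both induced by neuronal activity, rose in amygdala, and miR-135a-5p (-1.95) and miR-134-5p (-1.41), which controls dendritic spines, fell. Of 11 forebrain-enriched miRNAs, 5 were higher, such as miR-139-5p (2.72) and miR-222-3p (2.36), and 4 lower, such as miR-34a-5p (-3.15), with a median of 0.37, beside 9.39% higher and 14.9% lower of all miRNAs. The list's name and the direction of its members thus differ for 4 of 11. The forebrain-enriched sums were 11794 to 26948 CPM in amygdala and 9172 to 13650 CPM in dorsal raphe.

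Some markers of other cell types also differed between the regions, and apart from the values given here their part in the miR-128 difference was not tested. Their counts stand against 9.39% of all miRNAs called higher and 14.9% called lower. The list for choroid plexus and ciliated cells had 7 of 12 miRNAs higher and 0 lower in amygdala (median 1.45), led by miR-1298 (4.00) and miR-448-3p (2.92). Their summed level was 37616 to 60400 CPM in high responder amygdala, 2475 to 60635 in low responder amygdala and 4640 to 11568 in dorsal raphe. In high responder amygdala the sums were 37616, 60400, 49747 and 52906 CPM, beside miR-128-3p at 115022, 95055, 89225 and 88059 CPM. In low responder amygdala they were 15199, 60635, 36316 and 2475 CPM, beside miR-128-3p at 64212, 45979, 63378 and 68527 CPM. Values run from replicate 1 to 4, and whether the sums and miR-128-3p go together was not tested. Of 7 muscle miRNAs 6 were lower and 0 higher (median -1.89), such as miR-133a-3p (-2.93) and miR-1-3p (-2.70), with sums of 427.9 to 781 CPM in amygdala and 1832 to 5253 CPM in dorsal raphe. Of 8 oligodendrocyte miRNAs 4 were lower and 0 higher (median -0.77), among them miR-338-3p (-1.18) and miR-32-5p (-1.12), with sums of 7000.5 to 16299.5 CPM in amygdala and 11812 to 48962 CPM in dorsal raphe. Low responder dorsal raphe replicate 4 gave the highest scaled raphe sum in each of these lists. The TMM factor of that library, 0.596, raises its scaled sums, so these ranks may rest on the scaling. The next highest raphe sums were 9232 CPM for choroid plexus and ciliated cells, 2677 CPM for muscle and 18399 CPM for oligodendrocytes.

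Of 8 microglia and leukocyte miRNAs 2 were lower (median -0.36), miR-150-5p (-0.71) and miR-21-5p (-0.65), a share near the 14.9% of all miRNAs, with sums of 21987 to 43178 CPM in amygdala and 36164 to 60335 CPM in dorsal raphe. Of 10 vascular miRNAs 1 was higher, miR-214-3p (1.04), and 1 lower, miR-195-5p (-1.90), with a median of -0.54 and sums of 33696 to 50510 CPM in amygdala and 44888 to 119681 CPM in dorsal raphe. Of 6 astrocyte miRNAs 1 was higher, miR-449a-5p (1.33), which the ciliated cell list also holds, and 1 lower, miR-29b-3p (-0.66), with a median of -0.29 and sums of 62064 to 108459 CPM in amygdala and 80965 to 153112 CPM in dorsal raphe. Of 4 Hox cluster miRNAs 2 were lower, miR-10b-5p (-4.30) and miR-10a-5p (-2.31), with a median of -1.27. None of 5 erythrocyte miRNAs passed (median 0.01), with sums of 276.3 to 1972 CPM in amygdala and 653 to 2500.3 CPM in dorsal raphe, and of these miR-16-5p had -0.81 and miR-144-5p 0.23. Low responder dorsal raphe replicate 4 also gave the highest scaled raphe sums of the microglia and leukocyte, vascular and astrocyte lists. Its TMM factor of 0.596 raises every scaled sum of that library, and unscaled sums were not compared. The next highest were 56416, 62164 and 110379 CPM. Its erythrocyte sum was the lowest in raphe, and the next lowest was 1414 CPM. Between the lines no member of any list passed in either region.

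**Figure D5:**
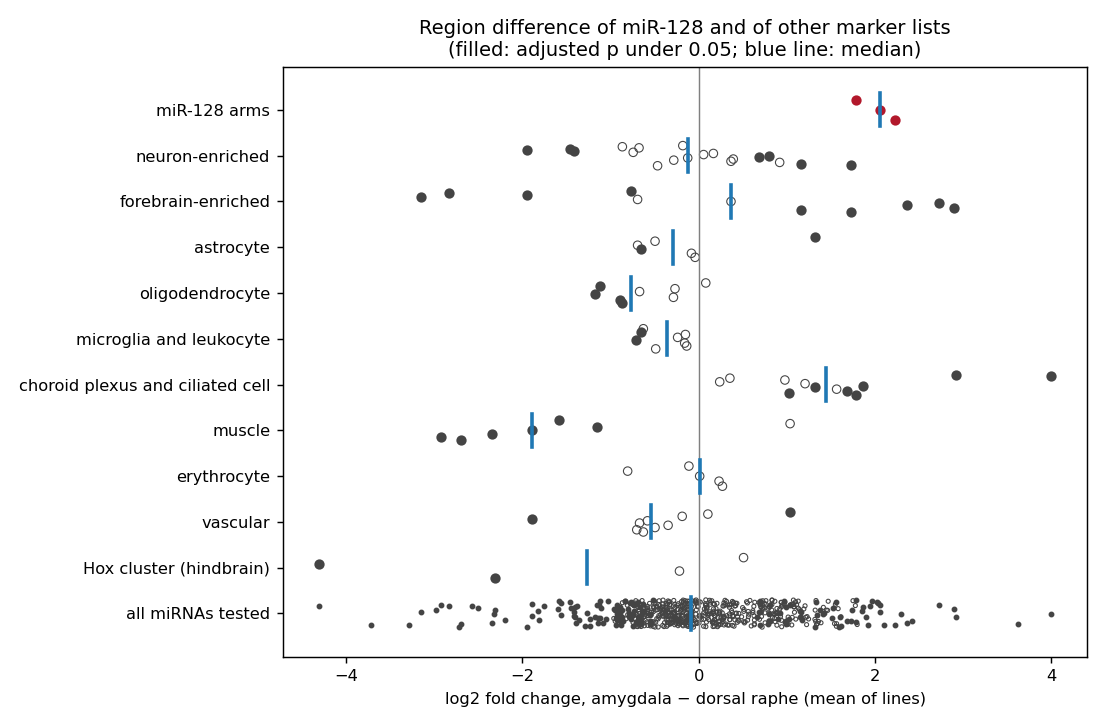
log2 fold change of amygdala over dorsal raphe (mean of the lines) for the miR-128 arms, for each marker list without miR-128 and for all 639 miRNAs tested; filled points passed an adjusted p of 0.05 and blue lines are medians. The 3 miR-128 arms lie between 1.78 and 2.23, while the neuron-enriched list has members on both sides of 0 and a median of -0.12.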

How the data were processed

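Small RNA of 16 bulk tissue samples was sequenced after miRNeasy extraction and size selection, per the labels' protocols. The deposited values are raw read counts per miRNA, 1 table per sample. Tools named in the submitters' processing notes are bedtools 2.14.2, cutadapt 1.3.1 and Bowtie2. How multi-mapping reads were counted, and on which genome build and annotation, is not given in the sources used here.

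Of 722 miRNAs, 639 passed edgeR's filterByExpr (minimum count 10, minimum total 15) and 83 did not. Counts were scaled by TMM and fitted with edgeR 4.0.16 (quasi-likelihood F test, 1 mean for each of the 4 groups, all 16 libraries, R 4.3.3), with Benjamini-Hochberg adjustment over the 639 at 0.05. Levels are TMM-scaled CPM, and log2 CPM used a prior count of 2. Ratios of counts (0.5 added to each) were compared with exact two-sided permutation tests in scipy 1.17.1. For differences averaged over the lines, labels were permuted within each line. The fit was tested on simulated data. No 2 libraries agreed within sampling noise (lowest chi-square per degree of freedom 55.4 over 120 pairs).

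Same-numbered libraries of high and low responder amygdala deviated together (correlations 0.688, 0.290, 0.212 and 0.509), while every other pair of groups had at least 1 correlation not above 0.1. The main tests were unpaired. Pairing by number was used only in the replicate blocks below and in a comparison added later. Alternatives were library totals, DESeq2 size factors, DESeq2 1.42.0, limma-voom 3.58.1, no filter, the compared groups alone, replicate blocks, other pseudocounts, each library left out, and the shallowest 2 libraries left out. The members, lists and tests were chosen with earlier results of these data known. The genes named are the 3 members, miR-124-3p, both miR-27 arms, the 5 patterns most and least like miR-128-3p, and called or defining members of each list.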

Additional observations from a re-analysis of the deposited data

Results flagged for a closer look

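Single libraries lay far from the other 3 of their group in 3 of 24 groups of values examined, where chance gives about 1 in 20. miR-128-3p in high responder dorsal raphe replicate 3 stood at 14.30 log2 CPM, and the other 3 libraries at 13.57 to 13.62. Unscaled it stood at 21654 CPM, and the others at 12668 to 15740 CPM, a gap that is 0.595 of the group's log2 range, too small to single it out by the same measure. miR-128-1-5p in low responder dorsal raphe replicate 4 stood at 3.08 log2 CPM, from 10 counts, and the other 3 at 2.06 to 2.22. Unscaled it stood at 4.77 CPM, and the others at 3.71 to 4.56 CPM, a gap that is 0.396 of the log2 range, so the distance rests on the TMM factor of 0.596. The log2 ratio of miR-128-3p to miR-124-3p in low responder dorsal raphe replicate 4 was 2.70, against -0.11 to 0.22 in the other 3.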

How the results depend on the processing

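The region differences of miR-128-3p and miR-128-1-5p kept their direction and passed under every alternative run. The miR-128-3p value averaged over the lines lay between 2.19 and 2.58. The miR-128-2-5p difference in low responders, 1.31, passed under library totals (1.62), DESeq2 (1.43), limma-voom (1.83) and without the shallowest 2 libraries (2.34), and ranged between 1.11 and 2.21 with single libraries left out. With the replicate block its value was 1.45 (edgeR adjusted p = 0.0501). The ratio of miR-128-3p to miR-124-3p averaged over the lines, 2.82, then did not pass (exact permutation p = 0.0156, adjusted p = 0.234). Same-numbered amygdala and raphe libraries deviated with correlations of 0.675, -0.275, 0.353 and 0.531 in high responders. In low responders these were -0.293, -0.000884, 0.158 and -0.285, so whether numbers pair the regions is not settled. Within 1 region, 4 pairs cannot give a p below 0.125. Pairing changed no other call.

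Without the shallowest 2 libraries these values changed sign: the raphe line differences of miR-128-3p (0.14) and miR-128-2-5p (0.40), the interactions of miR-128-1-5p (-0.075) and miR-128-2-5p (-0.26), the low responder region difference of the passenger ratio (0.043) and the raphe line difference of miR-128-3p to miR-124-3p (0.078). With single libraries left out, the raphe line difference ranged between -0.47 and 0.19 for miR-128-3p, -0.70 and 0.46 for miR-128-2-5p, -0.54 and 0.15 for passengers to miR-128-3p and -0.86 and 0.078 for miR-128-3p to miR-124-3p. The miR-128-2-5p interaction ranged between -0.014 and 1.11, and the passenger ratio between regions between -0.19 and 0.090 in high and -0.47 and 0.043 in low responders. Leaving out low responder dorsal raphe replicate 4 alone turned the raphe line differences of miR-128-3p (0.19) and miR-128-2-5p (0.46) positive. It also changed the sign of the miR-128-2-5p interaction (-0.014), the low responder passenger ratio between regions (0.043) and the raphe miR-128-3p to miR-124-3p line difference (0.078). The miR-128-1-5p interaction (0.021) kept its sign. Why these values changed sign was not tested.

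The number called between the lines in amygdala, 0 by edgeR, was 19 by DESeq2, 2 under library totals, 9 without the shallowest 2 and 0 to 2 with single libraries left out. For the interaction it was 22 by DESeq2, 1 without the filter, 3 without the shallowest 2 and 0 to 1 with single libraries left out. For high responders, 84, it was 136 by DESeq2, 138 without the shallowest 2 and counts equal to 9.55% to 20.03% of 639 with single libraries left out. The low responder number, 90, was 109 by DESeq2, 129 without the shallowest 2 and 64 with the compared groups alone. With single libraries left out it was 47 to 94. Library totals gave 40 higher and 71 lower in high responders, against 42 and 42, and 34 higher and 54 lower in low responders, against 23 and 67. They moved the median log2 fold change of all miRNAs to -0.11 in high responders, against 0.08, to 0.02 in low responders, against -0.12, to 0.14 for the raphe line difference, against -0.06, and to -0.24 for the interaction, against 0.09. Counts of 8 to 27 limit the passenger arms in dorsal raphe.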

Other observations

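The ratio of the passenger arms was also compared between the lines over both regions together, a comparison added after its values were seen. The log2 ratio of miR-128-2-5p to miR-128-1-5p, averaged over the regions, was higher in high than in low responders by 0.71 (1.64-fold, exact permutation p = 0.00776, adjusted p = 0.0698 over 18 tests). The ratio was above 1 in 8 of 8 high responder libraries and in 1 of 8 low responder libraries. With the amygdala libraries paired by number and the raphe libraries permuted freely, also added after the values were seen, the exact permutation p was 0.0179 and the adjusted p 0.161. Low responder dorsal raphe replicate 4, a library that stood apart, is also the 1 low responder library with a ratio above 1, so leaving it out removes the value that goes against the others. Without it the difference was 0.87 (adjusted p = 0.00367 by exact permutation without pairs and 0.0161 with them). Without that library and high responder amygdala replicate 1 it was 0.81 without pairs (exact permutation, adjusted p = 0.00735) and 0.79 with them (exact permutation, adjusted p = 0.0321). The same comparison gave -0.46 for passengers to miR-128-3p (exact permutation p = 0.0918, adjusted p = 0.236) and 0.47 for miR-128-3p to miR-124-3p (exact permutation p = 0.367, adjusted p = 0.550). Because the comparison was chosen for its values, it is no independent evidence of a line difference.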
